A study of Mus musculus with 36 samples.

Results

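Tube 10 of mouse b is 1 oocyte of the 36 sequenced one by one in this series, and it is described here against the other oocytes that carry the same genotype label. It was chosen because its library has the fewest genes with counts of all 36, so that number and the measures that go with it are given as descriptions. The reference was the other 17 libraries labelled Drp1_KO, and tubes 6 to 9, from the same mouse, were its nearest neighbours. Because a single library has no replicate, each value is placed against the range of the 17, and no p-value is given.

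By genotype label, 18 oocytes are Drp1_KO, taken from 4 mice named a to d, and the other 18 are Drp1_WT, taken from 5 mice named 1 to 5. Drp1, encoded by Dnm1l, is the dynamin-related GTPase that constricts mitochondria and peroxisomes during fission. All 36 oocytes were at the germinal vesicle (GV) stage, and each was put alone into a tube of water and snap frozen. No treatment is named for any of them, and each carries the label of its genotype and mouse alone. The sources used here do not give the strain, the age of the mice, the part of Dnm1l deleted or the driver of the deletion. Oocytes of a mouse share that animal, so the 17 libraries stand for 4 mice, 4 of the libraries from mouse b.

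A fully grown oocyte in meiotic prophase has all but stopped transcription and lives on mRNA made during growth. Some of these maternal transcripts code for the zona pellucida, secreted growth factors and the subcortical maternal complex, a protein scaffold under the plasma membrane that the early embryo needs. Others are stored with short poly(A) tails, and translation of many of them begins only in meiotic maturation, when the RNA-binding protein CPEB1 and U-rich elements in their 3′ untranslated regions (UTRs) set tail length. Maternal mRNA is then cleared largely through the CCR4-NOT deadenylase and its adaptor BTG4.

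Tube 10 lay inside the others in depth and outside them in content. Tube 10 held 4893482 counts, 4th from the lowest of the 18 libraries labelled Drp1_KO, and the 17 held 3178509 to 7104219. It had 11350 genes with at least 1 count, against 13199 to 14138 (median 13804) in the 17 and 13508 to 14659 in the 18 libraries labelled Drp1_WT. With each library thinned to 3178509 counts the numbers were 11058 and 12839 to 13452. Its 50 most abundant genes took 36.5% of counts, against 18.1% to 21.3% in the 17. Of its counts, 50% lay in 138 genes, where the 17 needed 381 to 562. Spearman's correlation with the median of the 17, across genes, was 0.860, and each of the 17 lay between 0.968 and 0.977. Of the 153 pairs among the 18 libraries labelled Drp1_KO, none agreed within sampling noise, and the smallest chi-square per degree of freedom was 6.59.

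**Figure D1:**
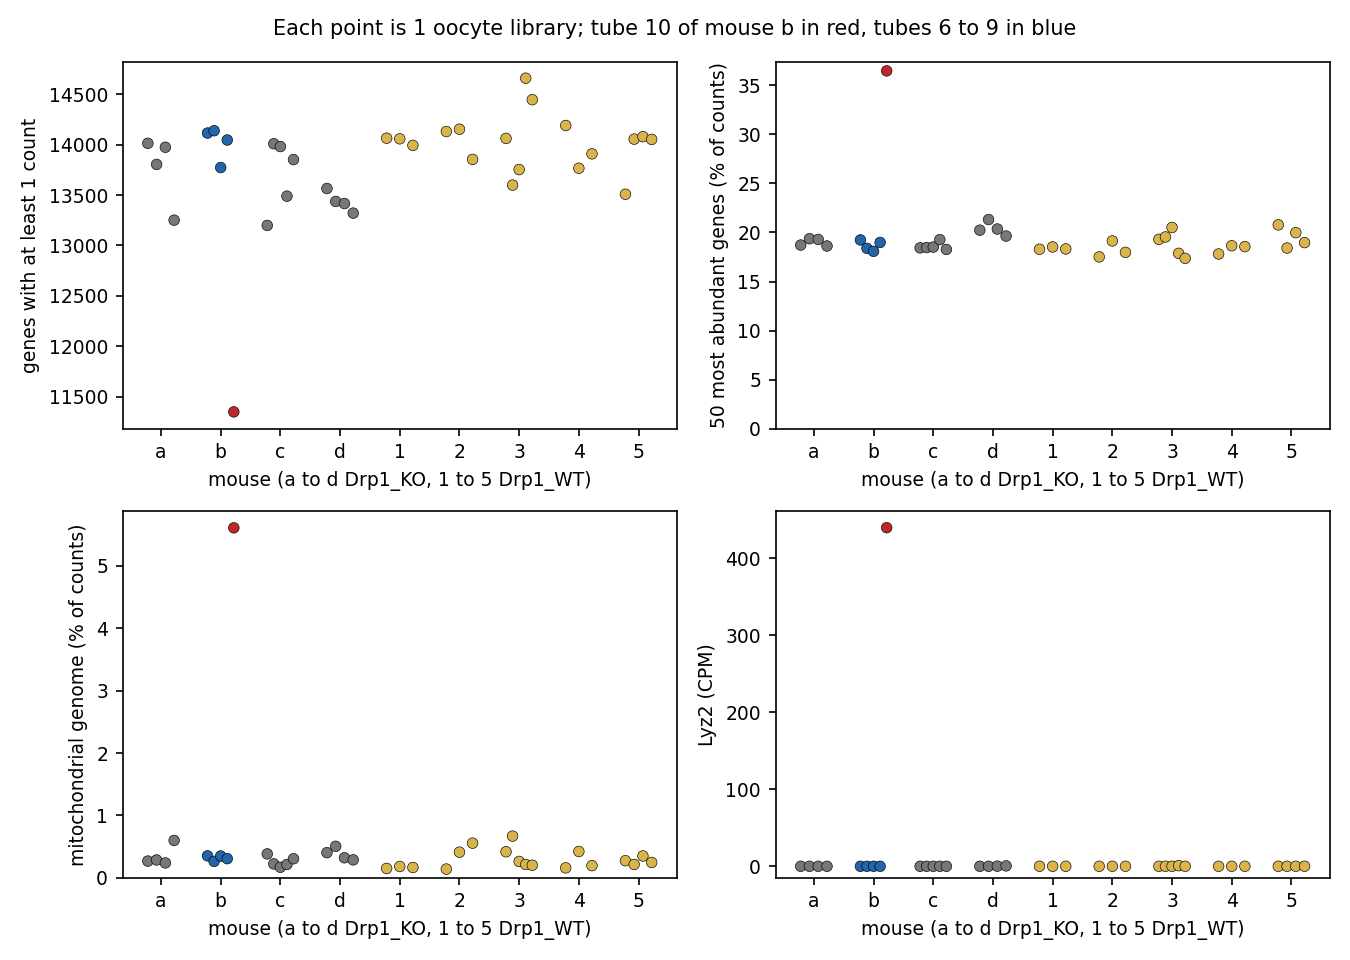
Genes with at least 1 count, share of counts in the 50 most abundant genes, share of counts from the mitochondrial genome, and Lyz2 in CPM (counts per 1000000 of the library total), for each library by mouse. Tube 10 (red) lies alone in all 4 panels, and tubes 6 to 9 of the same mouse (blue) lie with the remaining libraries.

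Dnm1l (chromosome 16, 16312230 to 16358959, minus strand, GRCm38) was read at 274 CPM (counts per 1000000 of the library total) in tube 10, the highest of the 18 libraries labelled Drp1_KO. In tubes 6 to 9 it was 209, 201, 205 and 179 CPM, in the 17 144 to 251 CPM (median 203), and in the libraries labelled Drp1_WT 116 to 322 CPM. The gene total therefore sets neither tube 10 nor any of the 17 apart from the Drp1_WT libraries. Counts are per whole gene, and whether they fall in the deleted part cannot be seen in them.

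A gene was called lower (higher) in tube 10 when it lay below (above) all 17 libraries and at least 4-fold from their median on the log2(CPM + 1) scale. Of 8612 genes with a mean of at least 5 CPM, 2606 (30.3%) were lower and 155 (1.8%) were higher. In all, 4669 (54.2%) lay below the range of the 17, 1676 (19.5%) above it and 2267 (26.3%) within it. The median difference over all genes was -0.89 (quartiles -2.37 and 0.26), so the count of lower members of a list is to be read against a table that is itself shifted down. CPM is a share of the library: a transcript can lie lower because there is less of it or because others take more, and the amount of RNA per oocyte was not measured. With TMM scaling, which centres the bulk of genes, the median was -0.21 and the calls were 1889 lower and 600 higher. Against the Drp1_WT libraries the picture was the same, with 2597 of the 2606 lower genes below all 18 of them and all 155 higher genes above all 18. This holds for every called member of the gene lists described here. Genes at the edge of the 4-fold rule were Atrn and Aven just inside and Serf1 and Stxbp3 just outside on the lower side, all 4 at -2.0. On the higher side they were Srsf3 and Hmgb3 inside (2.0 each) and Gca and Nip7 outside (2.0 and 1.99).

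**Figure D2:**
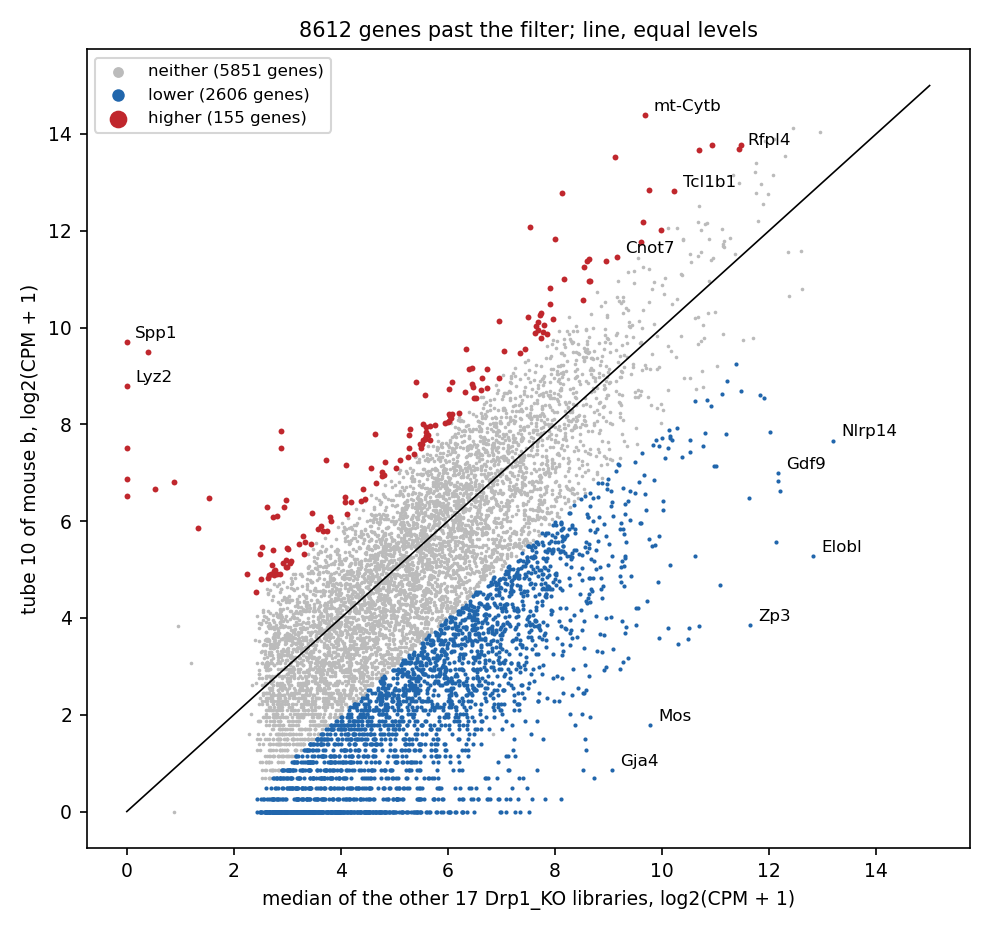
Level of 8612 genes in tube 10 (vertical axis) against the median of the other 17 libraries labelled Drp1_KO (horizontal axis), both as log2(CPM + 1), with the line of equal levels. The 2606 lower genes (blue) reach far below the line at every level, and the 155 higher genes (red) include abundant oocyte transcripts at the upper right and genes near 0 in the 17 at the left.

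The 2606 lower genes made up 3.12% of the counts of tube 10 and 32.3% to 36.9% of those of the 17. The 155 higher genes made up 19.1% against 1.93% to 3.88%. The rule that made the calls fixes the direction of both contrasts, so the shares describe their size only. Some of the 155 passed the filter only through tube 10: with the filter on the 17 alone, 143 were higher. A total of 1232 genes had 0 counts in tube 10 and counts in all 17, and 39 of these stood at 20 CPM or more in each of the 17. A count of 0 here allows a level of up to 0.613 CPM (3 counts), for counting error only. In the other direction, 100 genes had counts in tube 10 and 0 in all 17. Of the 50 genes most abundant in the 17, 26 were also among the 50 most abundant of tube 10, 18 were lower and 2 were higher. Lower genes were found at every level of expression: with genes split into 4 equal classes by their level in the 17, the share called lower was 25.5% in the lowest class and 34.8% in the highest.

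The 3′ ends of transcripts are where stored maternal mRNA carries the signals for its tail, so the stretch up to the polyadenylation signal is shown for genes on both sides. Each line gives 30 bases of the sense strand from the gene's longest protein-coding transcript in GENCODE M21 (GRCm38), with the signal AATAAA and any TTTTAT, the core of the element bound by CPEB1, in capitals. The first 4 genes were higher in tube 10 and the next 5 lower. Cnot7, Cks2 and Nlrp5 were chosen after their values were seen.
Omt2a: tggggttttaacggTTTTATaataAATAAA
Rfpl4: attagtgtatgatgttgtggaataAATAAA
Cnot7: aagtcttaaggtacaTTTTATatcAATAAA
Cks2: tgTTTTATtttacctgttttgttaAATAAA
Zp3: cttcctaccttgtatcccttccgcAATAAA
Tle6: gtgtgcagatcccgagttgcgtgtAATAAA
Nlrp5: ccttggaggatgtagcaagaatgaAATAAA
Gdf9: tgctgtggTTTTATgtgacggaagAATAAA
Bub1b: ctctcctttcactgtgtaTTTTATAATAAA
These windows lie in the last exon at chr9:78312018-78312047 (minus) (Omt2a), chr7:5109882-5109911 (minus) (Rfpl4), chr8:40493041-40493070 (minus) (Cnot7), chr13:51650608-51650637 (plus) (Cks2), chr5:135988583-135988612 (plus) (Zp3), chr10:81590919-81590948 (minus) (Tle6), chr7:23441875-23441904 (plus) (Nlrp5), chr11:53437858-53437887 (plus) (Gdf9) and chr2:118641547-118641576 (plus) (Bub1b). Omt2b has the same 30 bases as Omt2a. TTTTAT stands in the windows of Omt2a, Cnot7 and Cks2, which were higher, and in those of Gdf9 and Bub1b, which were lower. Its presence near the signal thus does not sort the genes shown. They were picked, so they do not give the share with TTTTAT among all lower or higher genes. Most other named genes with such a window, lower or higher, had no TTTTAT in it. Over the longer ends searched below, TTTTAT was in 21.8% of lower and 40.9% of higher genes.

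Transcripts for the egg coat were among the lowest of all. Of 8 measured members of the zona pellucida and fertilisation list, 8 (100%, against 30.3% of all genes) were lower. Their median difference was -4.05 against -0.89 for all genes (-3.78 with the member at 0 counts set to its limit of 3 counts). With TMM scaling 6 of the 8 were lower, with a median of -3.69. Zp3, a structural protein of the zona (chromosome 5, 135980099 to 135988624, plus strand), stood at 13.5 CPM in tube 10, from 66 counts. Its level was 4516, 3339.5, 2885 and 3218 CPM in tubes 6 to 9 and 2045 to 5496 CPM (median 3213) in the 17. Tube 10 lay far below every other library, with a difference of -7.79. Zp2, the zona protein cleaved after fertilisation, was at 46.4 CPM against 7322, 3017, 3585 and 4059 CPM in tubes 6 to 9, a difference of -6.56. Zp1, which crosslinks zona filaments, was at 13.5 CPM and 408 to 1291 CPM (median 735) in the 17. Astl encodes ovastacin, the protease that cleaves ZP2, and was at 10.8 CPM against 84 to 422 CPM (median 216). Izumo1r (Juno), the egg receptor for sperm IZUMO1, was at 56.4 CPM against 420.1 to 716 CPM (median 589.7), and the egg tetraspanin Cd9 at 42.1 CPM against 179 to 407 CPM (median 249.9). The remaining members, Mlf1 and the ubiquitin hydrolase Uchl1, were also lower. Mlf1 had 0 counts in tube 10 and 6.79 to 20.2 CPM (median 13.9) in the 17.

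Secreted factors split. Of 9 measured, 5 (55.6%, against 30.3% of all genes) were lower and 0 higher, and the median difference was -2.15 (4 lower and -1.34 with TMM scaling). Gdf9, the growth factor that instructs granulosa cells (chromosome 11, 53431023 to 53437904, plus strand), stood at 126 CPM in tube 10. It was 4850.1, 4418, 4818 and 4682 CPM in tubes 6 to 9 and 2589.5 to 6188 CPM (median 4601) in the 17, a difference of -5.18. Its partner Bmp15, named after its values were seen, was at 606 CPM against 1314 to 3452 CPM (median 2683), so the 2 partners were both lower but by different amounts (-2.15 for Bmp15). Plat, the tissue plasminogen activator that oocytes translate during maturation, was at 12.9 CPM against 716 to 1810.4 CPM (median 1445). Fgf8 was read with 1 count, where the 17 ranged 80.5 to 154 CPM (median 109). Of the oocyte-secreted Oosp proteins, Oosp2 was lower (48.2 CPM against 693 to 1734 CPM, median 865), while Oosp1 at 3273 CPM and Oosp3 at 2197 CPM lay within the range of the 17 (1544 to 3985 CPM, median 2269 for Oosp1 and 790.2 to 2501 CPM, median 1315 for Oosp3). These 3 genes of related name therefore do not share a level in tube 10.

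The subcortical maternal complex showed the deepest median of the lists, -5.34. Of its 7 measured members 6 (85.7%, against 30.3% of all genes) were lower. Khdc3 was read with 1 count against 28.9 to 327 CPM (median 141) in the 17. Tle6 was at 13.3 CPM, against 1728, 1929, 1707 and 1541 CPM in tubes 6 to 9 and 489 to 2690.0 CPM (median 1660.3) in the 17, a difference of -6.86. Ooep was at 98.1 CPM against 3639 to 6979 CPM (median 4716), and Padi6, a peptidylarginine deiminase of the cytoplasmic lattices, at 113 CPM against 1413 to 7547 CPM (median 4592). Nlrp5 (MATER), which is needed past the first cleavage, was at 140.2 CPM against 954 to 2910.0 CPM (median 2069). Nlrp2 was at 32.5 CPM against 359 to 836 CPM (median 622). The exception was Zbed3, at 9126 CPM, above the 17 (2293 to 5225 CPM, median 4307) but less than 4-fold from their median. The members therefore did not all lie on the same side of the 17.

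Other oocyte Nlrp genes, which code for proteins of the same family as NLRP5, looked different. Of 9 measured, 1 (11.1%, against 30.3% of all genes) was lower. This was Nlrp14, the gene with the highest median in the 17 by counts, 9406 CPM (8950.5, 9406, 7906 and 10957 in tubes 6 to 9), which stood at 202 CPM in tube 10. Nlrp4f was at 2934 CPM and 1766 to 3499.7 CPM (median 2638) in the 17, Nlrp4e at 162 CPM and 44.7 to 211 CPM (median 161), and both lay within the range. The close relatives Nlrp9a and Nlrp9b lay below it (906 and 673 CPM) and Nlrp9c above it (2629 CPM against 1181 to 2296 CPM, median 1487). The median of the list was -0.35, and 0.35 with TMM scaling.

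Of 13 oocyte transcription factors, 4 (30.8%) were lower and 0 higher, with a median of 0.02 (0.65 with TMM scaling). That share is near the 30.3% of all genes, so only single members are described. The 4 were Figla, Nobox, Lhx8 and Sall4. Figla, which activates the zona genes during growth, had 0 counts in tube 10 and 50.3, 66.4, 61.8 and 85.6 CPM in tubes 6 to 9. Nobox was at 46.2 CPM against 286 to 1135 CPM (median 637), Lhx8 at 31.1 CPM against 77.7 to 232 CPM (median 157), and Sall4 at 12.9 CPM against 179 to 253 CPM (median 207). Foxo3, the factor that holds primordial follicles at rest, was within the range at 48.4 CPM (38.6 to 82.4 CPM, median 47.9), as was the oocyte homeobox gene Sebox at 103 CPM (60.3 to 138 CPM, median 94.4). Ctcf (140.4 CPM) and Pou5f1 (51.9 CPM) lay above it (at most 97.9 and 38 CPM in the 17).

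Among oocyte gene families, Rfpl4 and the Tcl1b genes were higher and most Fbxw genes lower. Of 31 measured members of the Rfpl4, Tcl1, Oog, Obox and Fbxw families, 6 (19.4%) were higher and 11 (35.5%) lower. Over all genes the shares were 1.8% and 30.3%. Of the 31, 13 lay above the range and 16 below it, and the median was -0.49. With TMM scaling 9 were higher and 8 lower, with a median of 0.22. No Obox or Oog gene was called. Rfpl4, an oocyte RING-finger protein (chromosome 7, 5109787 to 5116950, minus strand), stood at 13139 CPM in tube 10. It was 2800.4, 2672, 3137 and 2933 CPM in tubes 6 to 9 and 2023 to 3176 CPM (median 2778) in the 17, so tube 10 was far above a narrow group, with a difference of 2.24. The other 5 higher members were Tcl1b1 to Tcl1b5, relatives of the AKT cofactor TCL1 in a cluster on chromosome 12. Tcl1b1 was at 7243 CPM against 1066, 1157, 1134 and 1236 CPM in tubes 6 to 9, and Tcl1b2 at 4609 CPM against 706, 820.2, 832 and 782. Tcl1 itself was at 14897 CPM, above the 17 (3305 to 5259.7 CPM, median 3887), and its difference from their median, 1.94, was just under the 4-fold rule. Obox2, Obox5 and Oog3 also lay above the range, at 16932, 7022 and 8146 CPM.

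The lower members of these families were 10 Fbxw genes, oocyte F-box proteins clustered on chromosomes 9 and 13, and E330017A01Rik. Fbxw15 was at 388 CPM against 3892, 2663, 3165 and 3660.1 CPM in tubes 6 to 9, Fbxw21 at 139 CPM against 1876, 1891, 2200.2 and 2041, and Fbxw13 at 19.2 CPM against 358, 333, 323 and 404. Fbxw17 had 0 counts against 12 to 40.04 CPM (median 27.9). Fbxw14, Fbxw22 and Fbxw24 lay below the range but not by 4-fold (-2.0, -0.49 and -1.71), so all 13 measured Fbxw genes lay below every one of the 17. E330017A01Rik was at 87.7 CPM against 2744 to 5553 CPM (median 3177), while the like-named E330034G19Rik stood at 17843 CPM against 4153 to 6424 CPM (median 5583). Members of these families are close copies, and the sources used here do not say how reads that match several of them were counted, so levels of single members are uncertain.

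The most abundant higher genes outside these families were Omt2a, Omt2b and Mphosph6. Omt2b stood at 14045 CPM against 1773, 1887, 2133 and 1960.5 CPM in tubes 6 to 9, and Omt2a at 13011 CPM against 1413, 1579, 1752 and 1644. Omt2a and Omt2b are neighbouring near-copies, which the counting may split. Mphosph6, a cofactor of the RNA exosome, was at 14059 CPM against 1993 to 4869 CPM (median 2832).

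**Figure D3:**
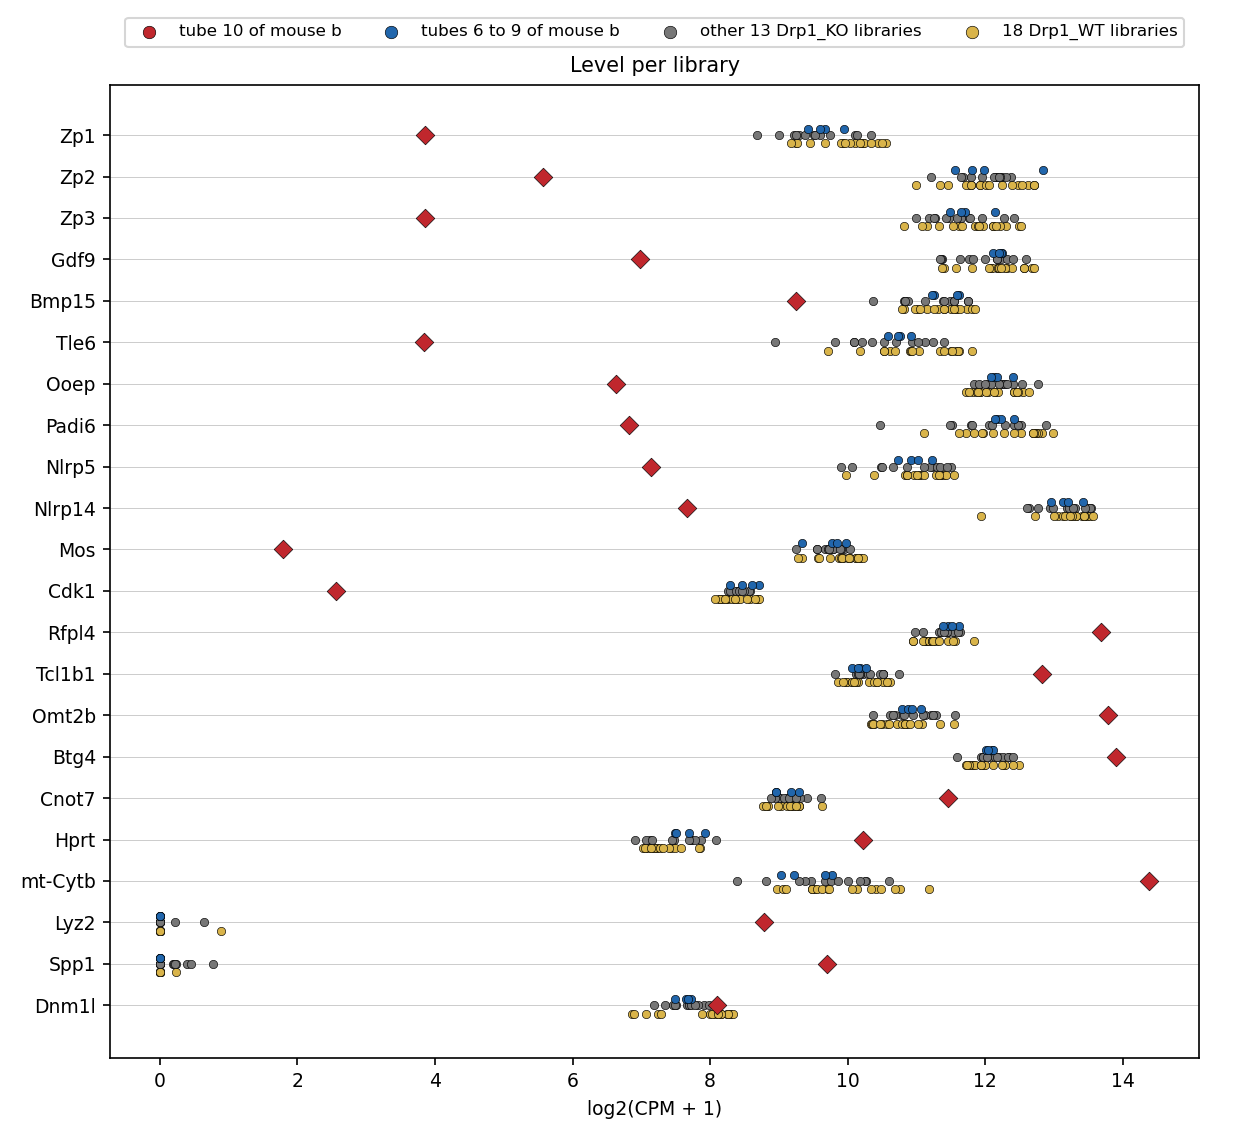
Level of 22 genes in each library as log2(CPM + 1), with tube 10 as a red diamond, tubes 6 to 9 of mouse b in blue, the other 13 libraries labelled Drp1_KO in grey and the 18 labelled Drp1_WT in yellow. From Zp1 to Cdk1 the diamond lies to the left of all other points, from Rfpl4 to Spp1 to the right, and for Dnm1l among the Drp1_WT points.

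Regulators of meiosis were found on both sides of the 17. Of 33 measured in the list of kinases, cyclins and checkpoint genes, 11 (33.3%) were lower and 1 higher, with a median of -0.74 (-0.05 with TMM scaling). These shares too are near those of all genes (30.3% and 1.8%). Mos, the kinase that starts the MAPK cascade of meiosis, stood at 2.45 CPM, from 12 counts, against 872, 1006, 645 and 923 CPM in tubes 6 to 9 and 609 to 1049 CPM (median 876) in the 17. Cdk1, the catalytic subunit of maturation-promoting factor, was at 4.9 CPM against 306 to 420.0 CPM (median 343). Its cyclin partners did not follow it: Ccnb1, named after its values were seen, was at 2162 CPM, above the range (1133 to 1895 CPM, median 1325), and Ccnb2 at 268 CPM was within it (267 to 426 CPM, median 334). Bub1b (BUBR1), a spindle checkpoint protein, was at 14.3 CPM against 500.0, 769, 708 and 548 CPM in tubes 6 to 9. The checkpoint kinase Bub1 was at 28.8 CPM against 157 to 287 CPM (median 219). The checkpoint protein Mad2l1 was the 1 higher member, at 3487 CPM against 640.1 to 1159.8 CPM (median 776). Pttg1, the securin that the anaphase-promoting complex destroys, was at 9096 CPM against 2193 to 4031 CPM (median 2567), a difference of 1.83 that misses the 4-fold rule.

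The CDK subunits Cks1b and Cks2, named after their values were seen, were higher. Cks1b was at 2441 CPM against 237 to 575 CPM (median 372), and Cks2 at 2057 CPM against 209 to 466 CPM (median 286). Fzr1 (CDH1), which activates the anaphase-promoting complex during prophase arrest, was at 5.31 CPM against 30.3 to 146 CPM (median 76.6), and its inhibitor Fbxo5 (EMI1) at 23.1 CPM against 166 to 280.3 CPM (median 229). The inhibitory kinase Wee2 was within the range at 912 CPM (713 to 1138 CPM, median 963). Of 13 genes of the cyclic AMP arrest and its phosphatases, 2 (15.4%) were lower and 1 (7.69%) was higher, against 30.3% and 1.8% of all genes. The median was -0.19 (0.51 with TMM scaling, when 2 were lower and 2 higher). The lower ones were Akap1, an anchor of protein kinase A at mitochondria (2.25 CPM against 36.1 to 84.5 CPM, median 50.6), and the phosphatase subunit Ppp2ca (16.8 CPM against 96.6 to 180.2 CPM, median 157). The phosphatase subunit Ppp1cb was the higher one (237 CPM against 26.9 to 62.1 CPM, median 38.3).

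Transcripts known to be stored for translation during maturation stood mostly above the range. Of 16 measured, 12 lay above all 17 libraries and 3 below, where 19.5% of all genes lay above and 54.2% below. In this list 3 (18.75%) were called higher and 3 (18.75%) lower, against 1.8% and 30.3% of all genes. With TMM scaling 8 were higher and 3 lower. The median was 1.18, against -0.89 for all genes. The 3 lower ones were Mos, Plat and Bub1b, already described. The 3 higher ones were Hprt, Cnot7 and Orc6, the last 2 named after their values were seen. Hprt, the purine salvage enzyme, was at 1193 CPM against 179, 206, 243 and 179.8 CPM in tubes 6 to 9 and 119.5 to 271 CPM (median 179.8) in the 17. Cnot7, a deadenylase of CCR4-NOT, was at 2811 CPM against 474 to 782 CPM (median 568). Orc6, of the origin recognition complex, was at 1992 CPM against 274 to 607 CPM (median 401). Btg4, the CCR4-NOT adaptor, was at 15222 CPM against 4369.8, 4121, 4447 and 4206 CPM in tubes 6 to 9, above every library but under the 4-fold rule (1.80). Others above the range were Slbp, the stem-loop binding protein of histone mRNA (5834 CPM against 1249 to 2163 CPM, median 1658), Spin1 (12013 against 4299 to 6069 CPM, median 5012) and Dazl (1887 against 793 to 1484 CPM, median 1024).

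Of 51 measured genes of maternal RNA storage and decay, 12 (23.5%) were lower and 2 (3.92%) higher, against 30.3% and 1.8% of all genes. Of the 51, 20 lay below and 18 above the range, and the median was -0.02. With TMM scaling 10 were lower and 11 higher, with a median of 0.63. The share called lower is under that of all genes, so single members are described. The lower genes included RNA-binding proteins of the growing oocyte. Zar1l was at 17.6 CPM against 763, 785, 674 and 729.8 CPM in tubes 6 to 9, and Zar1 at 37.6 CPM against 365 to 1128 CPM (median 636). Cpeb1, which binds the U-rich elements, was at 28 CPM against 359.8 to 905 CPM (median 687), and Patl2, an RNA-binding repressor of translation in oocytes, at 1.43 CPM against 56.9 to 143 CPM (median 81.7). Pabpc1l, the oocyte poly(A)-binding protein, was at 2.86 CPM against 47.7 to 194 CPM (median 104). The higher genes were Cnot7 and Cpeb4, the latter at 62.7 CPM against 6.93 to 21.4 CPM (median 13.1). Deadenylase and decapping genes above the range included Pan3 (199.7 CPM against 32.2 to 82.1 CPM, median 55.1), Dcp2 (249.5 against 49.8 to 109 CPM, median 79.5), Cnot6l (591 against 159 to 393 CPM, median 274) and the poly(A) polymerase Tent2 (92.2 against 26.6 to 45 CPM, median 33). The CCR4-NOT subunit Cnot10, at 0.817 CPM, and the deadenylase Parn, at 6.95 CPM, were on the other side (at least 19.4 and 34.6 CPM in the 17).

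Of 41 maternal-effect genes, 14 (34.1%, near the 30.3% of all genes) were lower and 0 higher, with a median of -1.55. With TMM scaling 11 were lower and 4 higher, with a median of -0.87. Beside the complex members already given, the lower ones included Npm2, the histone chaperone of sperm chromatin remodelling (357 CPM against 1315 to 1753 CPM, median 1568), Dnmt1, the maintenance DNA methyltransferase (209.9 against 738 to 1387 CPM, median 1132), and Zfp57, which guards imprints (333 against 1517 to 2496 CPM, median 1931). Dppa3 (STELLA), by contrast, stood at 10822 CPM, above the range (2451 to 5355 CPM, median 3469), a difference of 1.64 from the median. The oocyte linker histone H1foo, named after its values were seen, was at 1773 CPM against 6397, 7795, 5829.5 and 6512 CPM in tubes 6 to 9, below the range, with a difference of -1.83 from the median of the 17. The 2 genes for histone H3.3 parted: H3f3a was at 51.5 CPM, below 180.2 to 307 CPM (median 207), and H3f3b at 4525 CPM, above 1161 to 2271 CPM (median 1794). Of 27 histones and chaperones 6 (22.2%, against 30.3% of all genes) were lower and 1, Anp32e, was higher, with a median of -0.30. With TMM scaling 3 were lower and 4 higher, with a median of 0.30. Of 13 small RNA genes 3 (23.1%, against 30.3% of all genes) were lower and 0 higher. The 3 were Henmt1 (4.09 CPM against 86.4 to 265 CPM, median 231), Tarbp2 and Ago2.

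Among the 50 genes most abundant in the 17, those nearest to no difference in CPM were Nlrp4f, Bpgm, D6Ertd527e, Oosp1, Trim61, Ssb, Gm10436, Mdm4, Obox1 and Skp1a. Bpgm, the red-cell type phosphoglycerate mutase that oocytes also make, was at 4696 CPM against 3548, 4061, 3356 and 3773 CPM in tubes 6 to 9. Mdm4, a negative regulator of p53, was at 6017 CPM against 3597, 3546, 3919 and 3316, and Ssb (La), which binds the ends of RNA polymerase III transcripts, at 3702 CPM against 2335, 2026, 2488 and 2336. Skp1a, the adaptor of F-box proteins, was at 3008 CPM, below 4242 to 6284 CPM (median 5255). With TMM scaling these differences move up with the median of all genes, so a level retained in CPM is a level above the typical gene of tube 10.

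The largest differences downward joined genes known in the oocyte to others of general function. Gja4 (connexin 37), which forms the gap junctions between oocyte and granulosa cells, was at 0.817 CPM from 4 counts, against 535, 608, 452 and 503 CPM in tubes 6 to 9 and 274 to 724 CPM (median 532) in the 17. Elobl, an oocyte relative of elongin B, was at 37.6 CPM against 7721, 7085, 7149.9 and 7256. Sgf29, a reader of methylated histone H3, was at 0.817 CPM against 326 to 442 CPM (median 366), and the kinesin Kif22 at 1.43 CPM against 185 to 515 CPM (median 383). Prr14 was read with 3 counts and Irf1, Serpini1 and Dmap1 with 1 each, where the lowest of the 17 stood at 198, 192, 148 and 119.9 CPM. Tpra1 and Gmpr had 0 counts, where the lowest of the 17 stood at 82.4 and 118 CPM. Of other lower genes abundant in the 17, Rdx, the radixin that links actin to the membrane, was at 374 CPM against 3335 to 4919 CPM (median 3853), and the ubiquitin gene Ubb at 229 CPM against 3133 to 5120.4 CPM (median 4122).

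Genes of protein synthesis and breakdown were lower as groups. Of 68 cytosolic ribosomal protein genes, 43 (63.2%, against 30.3% of all genes) were lower and 0 higher. Of the 68, 64 lay below the range and 1, Rpl15, above it. Their summed level was 976 CPM in tube 10 and 3964 to 6086 CPM in the 17, and the median difference was -2.30. Rps4x was at 17 CPM against 163 to 318 CPM (median 201) in the 17. Rpl7a had 0 counts and Rps29 3. Many ribosomal protein genes have processed pseudogenes that can share their reads. Of 31 proteasome subunits 18 (58.1%, against 30.3% of all genes) were lower and 0 higher. Of the 31, 26 lay below the range and 0 above, and the sum was 2565 CPM against 9021 to 11245. Psmc2, an ATPase of the proteasome's base, was at 11.4 CPM against 415, 425, 409 and 471 CPM in tubes 6 to 9, and Psmb1, of its core, at 15.1 CPM against 493, 453, 526 and 520.5. With TMM scaling, 24 ribosomal protein genes and 14 proteasome genes were lower, and 0 of either were higher.

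No gene of the stress lists that passed the filter was called higher. Of 17 genes of the integrated and heat stress responses 7 (41.2%, against 30.3% of all genes) were lower and 0 higher. The median was -1.88 (4 lower and -1.16 with TMM scaling). Of all 32 on this list, with those below the filter, 3 lay above all 35 other libraries and 9 had 0 counts in tube 10. The chaperone Hspa8 was at 11.9 CPM against 872, 833, 631 and 718 CPM in tubes 6 to 9, and Ddit3 (CHOP) at 6.54 CPM against 66.4 to 143 CPM (median 103). Of 18 genes of apoptosis and p53, 3 (16.7%: Aifm1, Parp1 and Endog) were lower and 2 (11.1%) higher, against 30.3% and 1.8% of all genes. The median was -0.23 (0.50 with TMM scaling, when 2 were lower and 4 higher). The higher ones were Apaf1, the scaffold of the apoptosome (32.3 CPM against 3.14 to 11 CPM, median 6.89), and Xiap, an inhibitor of caspases (33.1 against 3.36 to 11 CPM, median 5.52), which have opposite known roles. Trp53 (32.5 CPM) and Bax (14.1 CPM) lay within the range. Of 4 immediate-early and hypoxia genes past the filter none was called, and Dusp1 was at 65.6 CPM against 22.5 to 44.6 CPM (median 34.5). Most of the 22 on that list did not pass the filter. Of the 22, 7 lay above all 17 libraries and 5 above all 35 others, so a lack of calls does not show these responses absent. The 27 autophagy and lysosome genes had a median of -0.66 (0.07 with TMM scaling, when 5 were lower and 3 higher). Of the 27, 6 (22.2%, against 30.3% of all genes) were lower. Among them were Lamp1 (13.5 CPM against 123 to 329 CPM, median 229) and Npc1 (7.36 against 131 to 194 CPM, median 144). The 1 higher gene was the protease Ctsl at 232 CPM against 0 to 15.5 CPM (median 6.39). Of 10 genes known from embryonic genome activation 4 were lower (1 with TMM scaling) and 0 higher, against 30.3% lower over all genes (21.9% with TMM scaling).

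**Figure D4:**
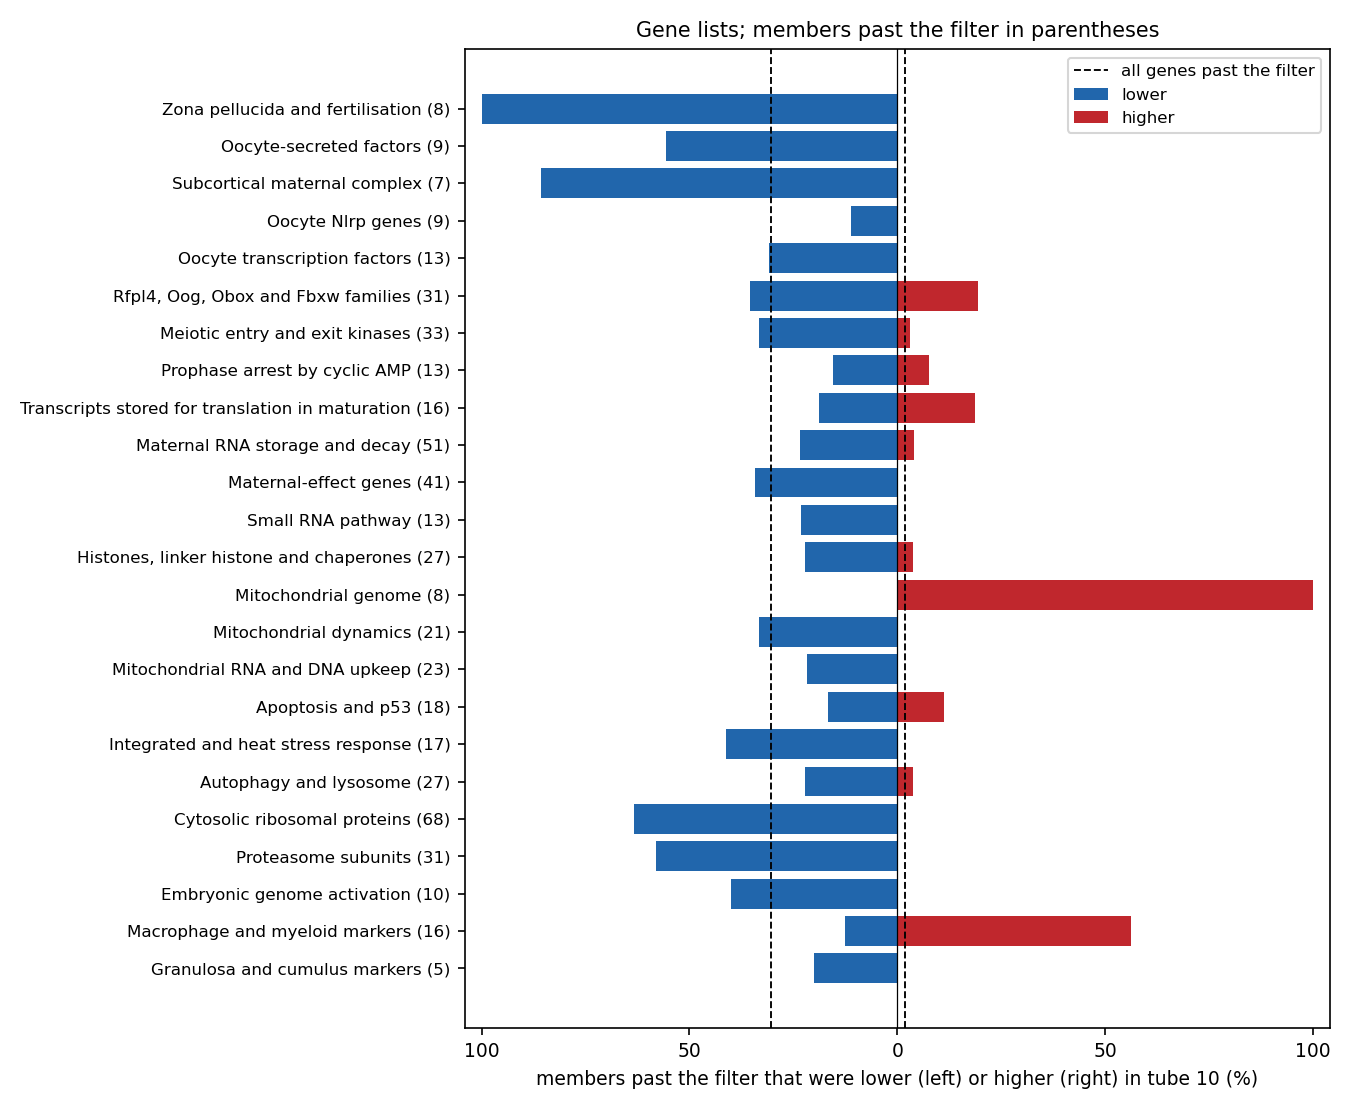
Percent of each list's members past the filter that were lower (blue, to the left) or higher (red, to the right) in tube 10, with dashed lines at 30.3% and 1.8% for all genes; lists with under 5 such members are left out. The zona pellucida, subcortical complex, ribosomal protein and proteasome lists extend furthest left, and the mitochondrial genome and myeloid lists furthest right, the latter with 6 members that passed the filter only through tube 10.

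Transcripts of the mitochondrial genome went the other way. All 13 in the table lay above the 17, all 8 past the filter were higher, and their median difference was 4.46. Their summed share was 5.61% of counts in tube 10, against 0.169% to 0.599% in the 17 and 0.140% to 0.669% in the Drp1_WT libraries. mt-Nd1, a subunit of complex I (mitochondrial chromosome, 2751 to 3707), stood at 11709.7 CPM against 868, 622, 847 and 649 CPM in tubes 6 to 9 and 321 to 1613 CPM (median 559) in the 17. mt-Cytb, of complex III, was at 21419 CPM, the gene with the most counts in the library, 2.14% of them, against 872, 523, 595 and 812 CPM in tubes 6 to 9. mt-Co1, of complex IV, was at 7306 CPM against 557 to 1369.6 CPM (median 869), the smallest difference of the 8 (3.07). Without these genes in the total, 2524 genes were lower and 181 higher.

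Nuclear genes of mitochondria did not share that direction. Of 23 genes that keep and express mitochondrial DNA, 5 (21.7%, against 30.3% of all genes) were lower and 0 higher, with a median of -1.52. With TMM scaling 4 were lower and 0 higher, with a median of -0.85. Polrmt, the mitochondrial RNA polymerase, was read with 1 count against 16.5, 32.8, 46.7 and 28.2 CPM in tubes 6 to 9, and Tfam, which packages the genome, was at 3.27 CPM against 8.29 to 31.4 CPM (median 14.6). Lrpprc and Slirp are partners that stabilise mitochondrial mRNA, and both were lower. Lrpprc was at 8.58 CPM against 21.7 to 51.6 CPM (median 39.7), and Slirp at 5.93 CPM against 45 to 123 CPM (median 60.5). Of 21 genes of mitochondrial dynamics 7 (33.3%, near the 30.3% of all genes) were lower and 0 higher, with a median of -1.37. With TMM scaling 3 were lower and 1 higher, with a median of -0.65. Mff, a receptor for Drp1 on mitochondria, was at 60.3 CPM against 526, 459, 619 and 460.4 CPM in tubes 6 to 9, while Fis1 at 67 CPM lay above the range (31.8 to 60.8 CPM, median 39.1). Chchd6, of the cristae junction complex, was at 4.9 CPM against 76.6 to 122 CPM (median 105), and the fusion genes Mfn1 (55.6 CPM) and Opa1 (54.2 CPM) differed by -0.36 and 0.28.

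Tube 10 also held transcripts that mark macrophages. The summed level of 49 macrophage and myeloid markers was 2838 CPM, against 219 to 339 CPM in the 17 and at most 492 CPM in the Drp1_WT libraries. Of the 49, 32 lay above all 17 and 31 above all 35 other libraries, and 9 had 0 counts in tube 10. Those at 0 were Lyz1, Cx3cr1, Cd14, Cd74, H2-Aa, Cd163, Ccl2, Il1b and Marco. The share of all genes above the 17, 19.5%, was taken past the filter only. Counts above the range that take in members below the filter, here and for other lists, therefore have no matching share. Of the 49, 16 passed the filter, but 6 of these only through their level in tube 10, which fixed that they were higher. Of the 10 with a mean of 5 CPM or more in the 17 alone, 3 were higher and 2, H2-Aa and Ccl2, were lower, though the 0.613 CPM that a count of 0 allows exceeds the lowest of the 17 for both. The oocyte libraries themselves read 9 of the 49 at a median of 5 CPM or more, so the sum in the 17 is not near 0. Lyz2, lysozyme M (chromosome 10, 117277331 to 117282321, minus strand), stood at 440.0 CPM from 2153 counts, with 0 counts in each of tubes 6 to 9 and at most 0.552 CPM in any of the 17. Spp1 (osteopontin) was at 828 CPM against at most 0.71 CPM, the cathepsin Ctss at 180.4 CPM against at most 1.04, and the Fc receptor chain Fcer1g at 116 CPM against at most 0.378. Pf4 was at 90.7 CPM, Apoe at 153 CPM (at most 15.6 in the 17) and Lgals3 at 66.6 CPM (at most 10.2). Tyrobp, Adgre1 (F4/80) and C1qa, named after their values were seen, were at 57.8, 34.5 and 17.2 CPM and at most 0.216, 0.169 and 0.146 CPM in the 17.

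In all, 74 genes stood at 5 CPM or more in tube 10 and under 1.5 CPM in each of the other 35 libraries, and 15 of them were on the myeloid list. They took 12898 counts, or 0.264% of the library, and at most 15.3 CPM in any other. The selection of these genes by level fixes that contrast. Among the 12 largest differences upward, those on no myeloid list were Tmsb4x, an actin-binding peptide of many blood cells (721 CPM, at most 10.4 in the 17), Anxa1 (101 CPM, at most 1.89), Lgals1 (111 CPM, at most 2.17), Ctsl, mt-Nd2 and mt-Cytb. Of these, Tmsb4x, Anxa1 and Lgals1 passed the filter only through their level in tube 10, which fixed that they were higher. The summed markers of other cells did not lie above the 17, though single members of each list did. These sums are also weighted by genes that the other oocyte libraries read themselves, such as Serpine2, Ms4a1 and Kit (medians 468, 179 and 127 CPM in the 17). A lower sum therefore does not show that other cells were absent. The neutrophil, mast cell and lymphoid list summed to 131 CPM against 223 to 383, with 19 of its 24 genes at 0 in tube 10. The granulosa and cumulus list summed to 221 CPM against 445 to 701, with Serpine2 lower (20.2 CPM against 293 to 579.7 CPM, median 468). Of its 26 genes, 8 lay above all 17 libraries, 5 above all 35 others, and 7 had 0 counts in tube 10. The stroma, endothelium, epithelium and blood list summed to 47.2 CPM against 34.2 to 71.02, with 18 of its genes at 0. With the myeloid list and the mitochondrial genome both left out, 2518 genes were lower and 165 higher of 8588. Beyond that, the part of the myeloid transcripts in the other differences of this oocyte was not tested.

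The lower and higher genes differed in what their transcripts are made of. The median GC content of the longest protein-coding transcript was 51.5% for the lower genes, 47.5% for genes called neither way and 43.9% for the higher genes. With 8588 genes split into 4 equal classes by GC content, from lowest to highest, the median difference was -0.03, -0.61, -1.22 and -1.86, and the share called lower 14.8%, 24.6%, 34.4% and 47.1%. The gap between the outer classes was 1.83 in tube 10. In the 17, each set against the median of the others, it ran from -0.38 to 0.50, and in the Drp1_WT libraries from -0.56 to 0.41, so tube 10 lay outside both. Spearman's rho of the difference with GC content across genes was -0.355 in tube 10 and -0.494 to 0.428 in the 17, so the rank correlation did not set tube 10 apart and the size of the gap did. GC content, length and the ends of transcripts go together across genes, and which of them bears on the level was not tested.

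Genes with short transcripts or a short 3′ UTR lay further down, but the higher genes were not long. The median 3′ UTR was 634 bases for the lower genes, 1317 for genes called neither way and 1120.5 for the higher genes. In 4 equal classes from the shortest 3′ UTR to the longest, the median difference was -1.91, -1.04, -0.56 and -0.36. By whole transcript it was -1.72, -1.22, -0.75 and -0.19. The median transcript was 2394 bases for the lower genes, 3477 for genes called neither way and 2351 for the higher genes, and the share called higher was largest in the class of the shortest transcripts, at 3.21%. Some lower lists sit at these ends: the median 3′ UTR was 93 bases for ribosomal protein genes, 224 for the subcortical complex and 251.5 for the zona list, and the median GC content of the latter 2 was 53.2% and 54.2%. The zona median of -4.05 and the subcortical complex median of -5.34 were further down than the median of either outer class (-1.86 for the highest GC content, -1.91 for the shortest 3′ UTR). Each class splits genes by GC content or 3′ UTR length alone, and the joint part of both in these lists was not tested. The level in the 17 made less difference, with medians of -0.77, -0.90, -0.85 and -1.07 from the class with the lowest level to that with the highest.

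**Figure D5:**
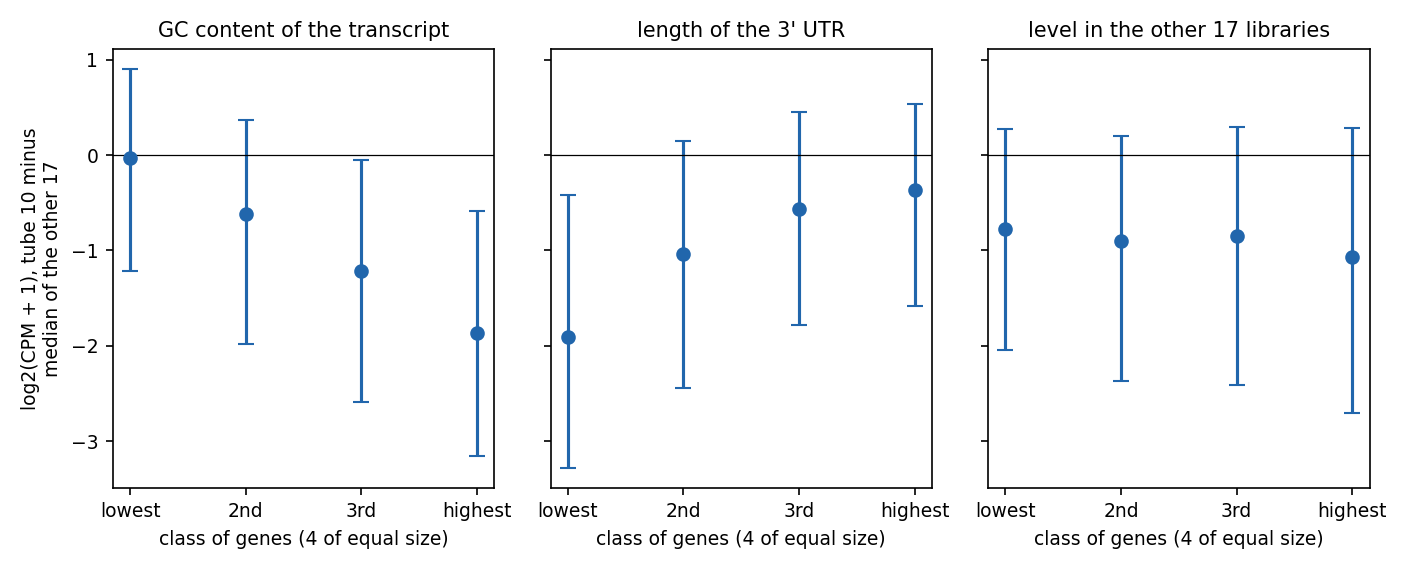
Difference between tube 10 and the median of the other 17 libraries, as log2(CPM + 1), in 4 equal classes of genes by GC content, by 3′ UTR length and by level. Points are medians and bars run from the first to the third quartile; the median falls from -0.03 to -1.86 with GC content and climbs from -1.91 to -0.36 with 3′ UTR length.

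The 3′ ends were searched for 4 short motifs on the sense strand, in the last 300 bases of the longest protein-coding transcript. TTTTAT was found in 21.8% of lower genes, 32.7% of genes called neither way and 40.9% of higher genes. It was in 29.6% of genes past the filter and 25.6% of all protein-coding genes. The ends of these classes also differ in GC content, with medians of 45%, 39.3% and 36.7%, and an A- and T-rich motif is more frequent in ends of low GC content. Within 4 equal classes by GC content of the end, the median difference of genes with and without TTTTAT was -0.04 and -0.39 in the lowest, -0.36 and -0.58 in the second, -0.88 and -1.26 in the third and -1.36 and -1.89 in the highest. Genes with the motif were thus less far down within each class, by less than the span across classes. TGTANATA, the site of Pumilio proteins, was in 7.51% of lower and 13.6% of higher genes (8.13% of all), TATTTA in 15.9% and 28.6% (19.2% of all), and AATAAA itself in 63.3% and 77.9% (66.97% of all). Genes with AATAAA were also less far down within each class (-0.12 and -0.59 in the lowest, -1.63 and -2.33 in the highest). The gap is thus not particular to TTTTAT. It was reversed for TATTTA in the lowest class (-0.26 with, -0.15 without) and for TGTANATA in the highest (-1.88 and -1.84). TTTTAT can overlap TATTTA and, as in Bub1b, abut AATAAA. A match is a description of these letters only.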

How the data were processed

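Single oocytes were lysed and their cDNA made with a SMARTer kit, which primes on poly(A) tails, and Nextera XT libraries were read single-end on an Illumina HiSeq, per the labels' protocols. A level can therefore depend on tail length, which was not measured. The authors deposited raw counts of 21968 genes in 36 libraries. GRCm38, Picard, STAR, featureCounts and Subread 1.5.2 are named, without roles, per the submitters' processing notes. The sources used here do not give the handling of strand and of multiple matches, so overlapping and antisense genes cannot be told apart, and PCR copies may count as reads.

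Genes were named from GENCODE M21 (21876 IDs matched), which also gave the longest protein-coding transcript per gene. CPM was taken per 1000000 of a library's total (pandas 2.3.3). Genes needed a mean of 5 CPM over the 18 libraries labelled Drp1_KO, and differences use log2(CPM + 1). Called genes lay outside all 17 and 4-fold from their median. No test was run, since 1 library has no replicate. Intervals and limits cover counting error only. The rule was run on simulated counts with equal numbers of genes raised and lowered, each by more than 4-fold. Tube 10 had far more lower than higher genes, so that run does not show how the rule performs on such a shift. Named genes were the markers, the 12 largest differences each way, the 10 lower genes most abundant in the 17, the 10 higher genes most abundant in tube 10, the 10 of the 50 most abundant that differed least, up to 4 genes per list, and others said to be named after their values were seen. Further list members were picked by role, also after their values were seen. The members and the 27 gene lists were chosen with earlier results of these data known. Alternatives used scaling factors of edgeR 4.0.16 and DESeq2 1.42.0, other filters, pseudocounts, folds and references.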

Additional observations from a re-analysis of the deposited data

Results flagged for a closer look

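Within each mouse, the 17 reference libraries were searched for 1 library that stands apart, in 16 groups of measure and mouse, of which chance alone would pick about 1 in 20. Tube 4 of mouse a had a total of 3179955 counts, where the other oocytes of that mouse had 6453008 to 6855958. The same library had 0.599% of counts from the mitochondrial genome, the highest of the 17, against 0.239% to 0.286% in its mouse. Tube 14 of mouse c had 19.3% of counts in its 50 most abundant genes, against 18.3% to 18.5%. Tube 10 of mouse b lay far outside these values, at 5.61% and 36.5%.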

How the results depend on the processing

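The calls were 2606 lower and 155 higher genes. TMM factors gave 1889 lower and 600 higher (24.1% of calls higher, against 5.61%), and DESeq2 size factors 1853 and 636 (25.6%). A filter at 1 CPM gave 2854 lower and 255 higher, and no filter 2854 and 372. A pseudocount of 5 gave 1596 lower. The 2-fold rule gave 4016 lower and 914 higher, the 8-fold rule 1377 and 30. Against tubes 6 to 9 alone there were 2681 lower and 143 higher, of which 2549 and 130 were the same genes. Leaving out a mouse of the reference gave 2579 to 2660 lower and 144 to 161 higher, and leaving out one of tubes 6 to 9 in turn 2669 to 2704 and 143 to 161. Without tube 4 of mouse a and tube 11 of mouse c, chosen after seeing the data, the calls were 2623 and 161, and with the filter on the 17 alone, chosen likewise, 2639 and 143. The mitochondrial sum was 4.20 on the log2 scale (4.93 with TMM) and the myeloid sum 3.41 (4.18 with TMM). The deficit in detected genes was -2454 at 1 count and -1921 at 5 counts. The cause of these shifts was not tested. Of the named genes' values 3248 moved by less than the spread of the reference and 402 by more. List medians near 0 changed sign with TMM scaling, as given beside them. No paired analysis was possible because the result is a description of 1 library with no test. Depth limits statements on genes at 0 in tube 10, which may stand at up to 0.613 CPM.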
